A study of Homo sapiens with 5 samples.

Results

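The YAP and TEAD pathway was followed through 10 genes chosen by name from the 27189 genes counted in each library. They were the co-activators YAP1 and WWTR1 (the gene for TAZ), the transcription factor TEAD1, the inhibitory kinases LATS1 and LATS2, and the target genes CTGF, CYR61, ANKRD1, AMOTL2 and AXL. The rule that names them uses no measured value. HT1080, a human fibrosarcoma cell line at passages 15 to 18, had spent 24 h in rat-tail type I collagen of 2 mg per ml. The untreated low-density cells (LD), the cells given recombinant IL-6 (IL-6), those given recombinant IL-8 (IL-8) and those given both cytokines at a ratio of 5 to 2 (RM) all started from 10 cells per cubic mm, and the untreated high-density cells (HD) from 50. Each condition was 1 library of 1 line, so no difference below could be set against a spread between replicates and no test between conditions was possible.

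YAP and TAZ are co-activators that carry no DNA-binding domain and act on genes through the TEAD family of transcription factors. In the Hippo pathway the kinases MST1 and MST2 (encoded by STK4 and STK3) activate LATS1 and LATS2, which phosphorylate YAP and TAZ so that they are held in the cytoplasm or degraded. Cell crowding, cell-cell junctions, the actin cytoskeleton and the stiffness of the matrix are known inputs to this pathway, and much of its control acts on the phosphorylation and location of the proteins, which transcript levels do not measure. AMOTL2 and LATS2 are also known targets of YAP and TEAD that act back on YAP as inhibitors. In these data the pathway can therefore be read only at the level of the transcripts of its components and targets.

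The DNA element that links the target genes to the pathway is the TEAD motif GGAATG, known from the classical enhancer elements bound by this family. It was searched on both strands (its reverse complement is CATTCC) in the 250 bases before each annotated start in RefSeq promoter windows of GRCh38.p14. Windows were found for 8 of the 10 genes, and none for TEAD1 or CYR61. The motif stood in 5 of the 12 windows, those of 5 genes, against 4175 of all 35116 windows (11.9%). The CTGF window held 3 matches, which 29 of all windows (0.0826%) equalled or exceeded. The windows of 4 target genes are shown because they place the motif beside the genes whose levels follow, with the 6 motif bases in capitals and each sequence written on the strand of its gene.
CTGF, chr6:131951373-131951622, minus strand: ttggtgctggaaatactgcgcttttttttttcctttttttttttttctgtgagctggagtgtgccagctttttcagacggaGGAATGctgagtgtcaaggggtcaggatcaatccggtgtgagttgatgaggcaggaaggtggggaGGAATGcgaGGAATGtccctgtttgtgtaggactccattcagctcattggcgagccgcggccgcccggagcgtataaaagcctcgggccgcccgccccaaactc
ANKRD1, chr10:90921088-90921337, minus strand: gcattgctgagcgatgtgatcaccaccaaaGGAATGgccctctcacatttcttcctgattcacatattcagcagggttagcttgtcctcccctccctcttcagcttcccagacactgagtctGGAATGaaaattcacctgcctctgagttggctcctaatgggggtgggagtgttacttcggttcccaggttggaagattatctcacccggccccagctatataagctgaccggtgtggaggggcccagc
AMOTL2, the second of its windows, chr3:134374448-134374697, minus strand: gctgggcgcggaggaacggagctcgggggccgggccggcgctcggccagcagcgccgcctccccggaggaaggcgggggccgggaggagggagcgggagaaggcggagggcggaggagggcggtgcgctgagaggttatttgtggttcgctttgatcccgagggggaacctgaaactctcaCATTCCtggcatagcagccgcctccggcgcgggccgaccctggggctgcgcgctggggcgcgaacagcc
AXL, the second of its windows, chr19:41226505-41226754, plus strand: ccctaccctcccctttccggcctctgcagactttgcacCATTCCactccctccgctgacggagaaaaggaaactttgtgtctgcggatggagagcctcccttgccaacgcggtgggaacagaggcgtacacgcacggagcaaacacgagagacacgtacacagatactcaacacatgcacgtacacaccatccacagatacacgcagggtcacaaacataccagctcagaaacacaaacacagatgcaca
In CTGF the matches began 169, 104 and 95 bases before the start, the last pair separated by 3 bases, and in ANKRD1 they began 220 and 128 bases before it. AMOTL2 and AXL each held 1 match, in the reverse orientation, beginning 69 and 212 bases before the start. YAP1 itself held 1 match 162 bases before its start. A match describes letters in a window and not an occupied site.

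Levels are given as TPM, the transcript abundance corrected for length and library total and here rescaled to 1000000 per library, and as the whole-number reads behind them. Totals ran from 5096134 to 7118545 reads in the 4 low-density libraries and reached 926376 in HD. A ribosomal RNA entry, RNA5-8S5, took 76.9 to 79.6% of the reads at low density and 51.5% in HD, so CPM below means reads scaled to a sum of 1000000 outside that entry (1100967 to 1645539 reads at low density and 449661 in HD). HD stood apart from the other libraries. It had a read on 20113 genes, against 13469 to 15080 at low density. The 9 fibrosarcoma and mesenchymal markers, such as VIM and FN1, all had reads in every library and summed to 5216 to 7683 TPM at low density and 1104 TPM in HD. Markers of other cell types summed higher in HD than in any low-density library. The epithelial list summed to 204 TPM in HD with 6 of its 7 genes read (3.11 to 29.6 TPM elsewhere, 1 to 3 genes), the leukocyte list to 306 TPM with 7 of 7 (147 to 169 TPM elsewhere, 2 or 3 genes), the endothelial list to 58.4 TPM with 4 of 5 (0.51 to 1.44 TPM elsewhere) and the neuronal list to 13.3 TPM with 3 of 5 (0 to 1.37 TPM elsewhere). KRT5, TEK, SYP and TUBB3 were at 0 reads in HD, while EPCAM, CD3E, CD14, VWF and KDR were at 0 in all 4 low-density libraries, where CD68 made up nearly all of the leukocyte sum. Not every marker was higher in HD. CD68 stood at 73.5 TPM in HD against 145 to 165 at low density. KRT19 stood at 18.0 TPM in HD, 27.6 in LD and 1.38 to 10.9 in the other low-density libraries. GRHL2 alone made up 144 TPM of the epithelial sum in HD. Every difference between HD and another library below stands beside these values, and the part they play in it was not tested.

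The 10 genes together took 1412 reads in LD, 910 with IL-6, 833 with IL-8, 875 with RM and 193 in HD. All 10 reached 1 TPM in some library, the filter applied to all genes. In such bulk RNA fewer cells of a kind and less RNA per cell cannot be told apart. In LD the targets AXL, CYR61 and AMOTL2 were the most abundant members. AXL, a receptor tyrosine kinase of fibroblastic and invasive cells, stood at 78.8 TPM (95% interval 71.6 to 86.5, exact Poisson on its reads, counting error only). CYR61 at 60.4 TPM and AMOTL2 at 56.2 TPM followed, with overlapping intervals. WWTR1 at 20.5, CTGF at 15.8, TEAD1 at 13.0 and ANKRD1 at 10.4 TPM formed the middle of the order, each interval overlapping that of its neighbour. YAP1 at 4.45, LATS2 at 2.45 and LATS1 at 0.97 TPM were lowest, and neighbours among these 3 overlapped as well. AXL was the highest of the 10 in all 5 libraries, and in the IL-6 and RM libraries its interval overlapped that of the next gene.

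**Figure D1:**
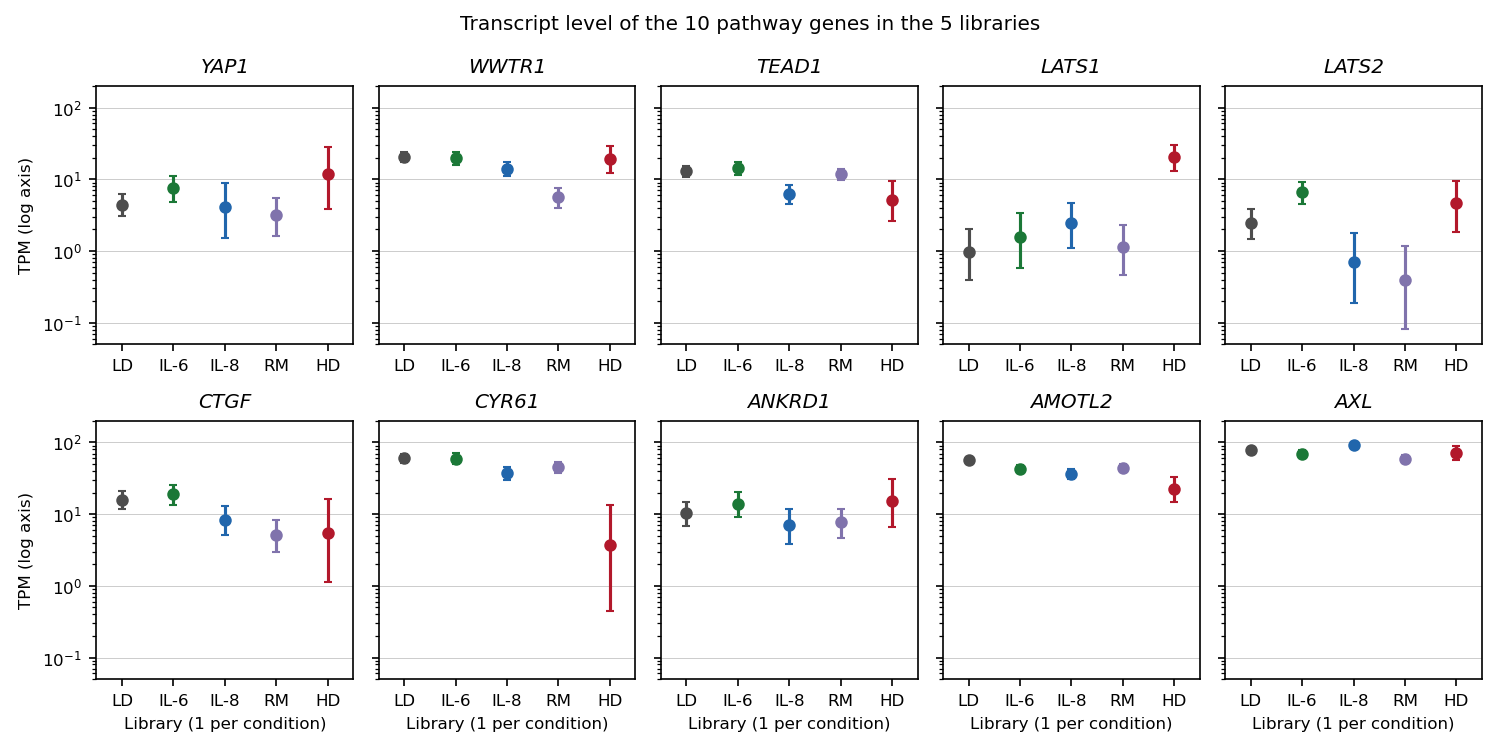
Level of each of the 10 genes in the 5 libraries, as TPM on a log axis; each point is 1 library and the bars are exact 95% Poisson intervals on its reads, which cover counting error only. WWTR1 is lowest in RM (5.63 TPM), CYR61 is lowest in HD (3.73 TPM) and LATS1 is highest in HD (20.2 TPM).

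Of the 2 co-activator genes, WWTR1 had the higher TPM in every library, with overlapping intervals in RM and HD. It had 149 reads and 20.5 TPM in LD, 97 and 19.5 with IL-6, 76 and 13.97 with IL-8, 40 and 5.63 with RM, and 24 and 19.3 in HD. LD, IL-6 and HD were thus close to each other in TPM, and RM lay below all 4 other libraries with an interval (4.02 to 7.67 TPM) that overlapped none of theirs. YAP1 was counted on far fewer reads: 32 reads and 4.45 TPM in LD, 24 and 7.46 with IL-6, 6 and 4.09 with IL-8, 12 and 3.15 with RM, and 5 and 11.97 in HD. Its level was highest in HD and lowest in RM in TPM, but highest in IL-6 (21.8 CPM) and lowest in IL-8 (5.35 CPM) in reads. The ratio of WWTR1 to YAP1 in TPM was 4.62 in LD, 2.62 with IL-6, 3.42 with IL-8, 1.79 with RM and 1.61 in HD.

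TEAD1, the DNA-binding partner of both co-activators, had 133 reads and 13.0 TPM in LD, 94 and 14.3 with IL-6, 43 and 6.23 with IL-8, 135 and 11.7 with RM, and 11 and 5.22 in HD. Its levels fell into a higher trio, LD, IL-6 and RM, and a lower pair, IL-8 and HD, whose intervals did not overlap those of the trio.

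The 2 LATS kinases, whose products phosphorylate YAP and TAZ, were counted on 3 to 35 reads at low density. LATS1 had 7 reads and 0.97 TPM in LD, 6 and 1.57 with IL-6, 9 and 2.44 with IL-8, 7 and 1.13 with RM, and 24 and 20.2 in HD. The 4 low-density intervals overlapped, and HD lay above all of them. LATS2 had 19 reads and 2.45 TPM in LD, 35 and 6.59 with IL-6, 4 and 0.69 with IL-8, 3 and 0.40 with RM, and 7 and 4.60 in HD. LATS2 was thus highest with IL-6 and lowest with RM and IL-8. It was the more abundant of the 2 kinases in LD and IL-6, with a TPM ratio of LATS2 to LATS1 of 2.53 and 4.21, and the less abundant in IL-8 (0.285), RM (0.351) and HD (0.227), and the intervals of the 2 genes were apart in the IL-6 and HD libraries only.

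Among the targets, CTGF and CYR61 encode secreted matricellular proteins and are the genes most often used to read YAP and TEAD activity. CTGF had 51 reads and 15.8 TPM in LD, 42 and 18.8 with IL-6, 20 and 8.30 with IL-8, 16 and 5.11 with RM, and 3 and 5.48 in HD. CYR61 had 187 reads and 60.4 TPM in LD, 125 and 59.6 with IL-6, 87 and 36.9 with IL-8, 134 and 45.4 with RM, and 2 and 3.73 in HD. The RM interval of CTGF (2.92 to 8.30 TPM) lay below its LD interval (11.7 to 20.7), while those of IL-8 and HD overlapped it. The IL-8 interval of CYR61 (29.6 to 45.5 TPM) lay below its LD interval (52.1 to 69.7), and its HD interval (0.45 to 13.5) below all 4 low-density intervals. The ratio of CYR61 to CTGF in TPM was 3.83 in LD, 3.17 with IL-6, 4.45 with IL-8, 8.88 with RM and 0.682 in HD, the last resting on 2 and 3 reads.

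ANKRD1, an ankyrin repeat protein of the nucleus and of the muscle sarcomere, had 28 reads and 10.4 TPM in LD, 26 and 14 with IL-6, 14 and 6.95 with IL-8, 20 and 7.64 with RM, and 8 and 15.5 in HD. All 5 of its intervals overlapped. AMOTL2, an angiomotin-family protein that binds YAP, had 365 reads and 56.2 TPM in LD, 203 and 42.7 with IL-6, 167 and 36.1 with IL-8, 250 and 44.4 with RM, and 27 and 22.7 in HD. LD was highest and HD lowest. AXL had 441 reads and 78.8 TPM in LD, 258 and 68.4 with IL-6, 407 and 90.9 with IL-8, 258 and 59.4 with RM, and 82 and 72.2 in HD, the smallest ratio of highest to lowest library among the 10. The 5 targets summed to 222 TPM in LD, 204 with IL-6, 179 with IL-8, 162 with RM and 120 in HD. Without AXL the sums were 143, 135, 88.2, 103 and 47.3 TPM. The order of the libraries in these sums depends on the scaling. Scaling by the median ratio of genes divides IL-8 by 0.732, RM by 0.601 and HD by 1.35 relative to LD. That raises the IL-8 and RM sums and lowers the HD sums.

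Each treated or dense library was then compared with LD, the comparisons with which the study asked how the transcriptome moves with each cytokine, with both, and with cell density. Differences were taken in log2(TPM + 1), so those of low genes come out too small, and those reaching 1 log2 unit are said to pass. They were read over the 21163 genes that reached 1 TPM in any library. The ratio of CPM in the 2 libraries is given beside them with an exact 95% interval from the reads. Such an interval compares 2 libraries and covers counting error only. The comparisons share the LD library, so a value of LD enters all of them.

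With IL-6 alone 9 of the 10 members lay within 1 log2 unit of LD. LATS2 was the member past 1 log2 unit, higher by 1.14 (35 against 19 reads, CPM ratio 2.75, 95% interval 1.53 to 5.10), where 17.3% of all genes tested passed (9.84% upward and 7.47% downward). The other 9 members lay between -0.39 (AMOTL2, CPM ratio 0.831, 0.697 to 0.990) and 0.64 (YAP1, 1.12, 0.632 to 1.96), and CYR61 stood at -0.02 with a CPM ratio of 0.999 (0.790 to 1.26). CTGF was at 0.24 with a CPM ratio of 1.23 (0.798 to 1.89) and ANKRD1 at 0.40 with 1.39 (0.782 to 2.46), both intervals including 1. The median difference was 0.18 over the 10 members and 0 over all genes tested.

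With IL-8 alone 8 of the 10 members lay below LD, and 1 passed 1 log2 unit, against 24.4% of all genes tested. That member was again LATS2, here lower by 1.03 on 4 against 19 reads (CPM ratio 0.309, 95% interval 0.0765 to 0.930). After median-ratio scaling LATS2 fell short, at -0.83, and LATS1 was the member that passed, upward at 1.14. TEAD1 at -0.95 (CPM ratio 0.475, 0.328 to 0.674) and CTGF at -0.85 (0.576, 0.325 to 0.983) stood just short of the threshold. CYR61 at -0.70, AMOTL2 at -0.62, WWTR1 at -0.52 and ANKRD1 at -0.52 were lower by less, and the CPM interval of ANKRD1 (0.357 to 1.44) included 1. YAP1 lay 0.10 below LD and turned to 0.27 after median-ratio scaling, and the other 7 lower members kept their sign in all 6 other settings. Their differences shrank after median-ratio scaling, to -0.10 for WWTR1, -0.12 for ANKRD1, -0.19 for AMOTL2, -0.26 for CYR61, -0.44 for CTGF and -0.56 for TEAD1. AXL, at 0.20 with a CPM ratio of 1.36 (1.18 to 1.55), and LATS1, at 0.80 with an interval of 0.626 to 5.97, lay above LD. The median was -0.57 over the members, -0.15 after median-ratio scaling, 0 over all genes tested and -0.23 over the 7380 genes with a mean of at least 10 TPM. Of all genes tested, 7.99% passed 1 log2 unit upward and 16.4% downward, and 12.6% and 11.2% after scaling by the median ratio of genes.

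With both cytokines WWTR1, CTGF and LATS2 were lower than in LD by more than 1 log2 unit, 3 of the 10 members, against 26.8% of all genes tested. WWTR1 was lower by 1.70 (40 against 149 reads, CPM ratio 0.308, 95% interval 0.212 to 0.439) and stayed past 1 log2 unit under each of the 6 other pseudocounts and scalings, between -1.85 and -1.06. CTGF was lower by 1.46 (CPM ratio 0.360, 0.192 to 0.641) and LATS2 by 1.30 (0.181, 0.0343 to 0.615, on 3 reads in RM). CTGF passed in 4 of the 6 other settings and LATS2 in 5, and both kept their sign in all 6. AXL at -0.40, CYR61 at -0.40, ANKRD1 at -0.39, YAP1 at -0.39, AMOTL2 at -0.33 and TEAD1 at -0.14 were also below LD, but each turned positive under another scaling: after median-ratio scaling AMOTL2 stood at 0.39, CYR61 and AXL at 0.32, ANKRD1 at 0.27 and YAP1 at 0.19, and TEAD1 reached 0.64 with TMM factors. LATS1 stood at 0.11, and its CPM interval (0.343 to 3.83) included 1. The median was -0.40 over the members, 0.29 after median-ratio scaling, and -0.38 over the 7380 genes with a mean of at least 10 TPM, and of all genes tested 6.44% passed upward and 20.4% downward, or 13.3% and 11.9% after median-ratio scaling.

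RM was also set beside each cytokine alone. Against IL-6, 4 members were lower by more than 1 log2 unit, LATS2 by 2.44, CTGF by 1.70, WWTR1 by 1.63 and YAP1 by 1.03, where 29% of all genes tested passed (6.34% upward and 22.7% downward). LATS2 had 3 reads with RM and 35 with IL-6, a CPM ratio of 0.0658 (95% interval 0.0129 to 0.209). Against IL-8, 1 member passed, WWTR1, lower by 1.17 (CPM ratio 0.411, 0.273 to 0.611), where 24.8% of all genes passed (9.87% upward and 14.9% downward). TEAD1 stood 0.81 above its IL-8 level, with a CPM ratio of 2.45 (1.73 to 3.54), and AXL 0.61 below it, with 0.495 (0.422 to 0.580). In TPM and CPM WWTR1 was thus lower in RM than with either cytokine alone. TEAD1 in RM was near its LD and IL-6 levels, and CTGF lay near its IL-8 level (RM to IL-8 CPM ratio 0.625, 0.303 to 1.27). Neither comparison was recomputed after median-ratio scaling. Its factor relative to LD was 0.601 in RM, 1.02 in IL-6 and 0.732 in IL-8, so the lower values in RM would shrink under it.

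At high density 6 members passed 1 log2 unit, LATS1 and YAP1 upward and CYR61, CTGF, AMOTL2 and TEAD1 downward, where 79.7% of all genes tested passed. LATS1 was higher by 3.43 (24 against 7 reads, CPM ratio 12.5, 95% interval 5.25 to 34.5). CYR61 was lower by 3.70, on 2 reads against 187 (CPM ratio 0.0391, 0.00471 to 0.143). AMOTL2 was lower by 1.27 (0.271, 0.176 to 0.400), CTGF by 1.37 (0.215, 0.0430 to 0.666, on 3 reads in HD) and TEAD1 by 1.17 (0.303, 0.148 to 0.559). LATS1, CYR61 and AMOTL2 passed in all 6 other settings, and CTGF and TEAD1 in 5. AXL, at -0.12, and WWTR1, at -0.08, were near LD in TPM and lower in CPM (ratios of 0.680 and 0.590, intervals of 0.531 to 0.863 and 0.366 to 0.911). LATS2 at 0.70 and ANKRD1 at 0.53 were above LD in TPM, with CPM ratios of 1.35 (0.479 to 3.35) and 1.05 (0.412 to 2.35), and both turned negative in other settings.

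Of all genes tested 61.9% passed upward and 17.9% downward. These include genes that reached 1 TPM in HD alone. Over the 14267 genes that reached it in a low-density library the shares were 43.9% and 26.5%, with a median of 0.55. With TMM factors 1 member passed upward and 7 downward, against 53.5% and 28.1% of all genes, and the median over all genes was 1.86 in TPM, 1.52 after median-ratio scaling, 1.69 in CPM and 1.32 with TMM factors. LATS1 was the only member above the median of 1.86 in TPM, and YAP1 at 1.25 lay below it. Among the 7380 genes with a mean of at least 10 TPM the median was -0.05 in TPM. Over the members it was -0.10 in TPM and -0.75 in CPM. Against RM, the library with both cytokines at low density, HD was higher by more than 1 log2 unit in LATS1 (3.32), LATS2 (2.00), YAP1 (1.64) and WWTR1 (1.62) and lower in CYR61 (-3.29) and TEAD1 (-1.03) in TPM, where 81.1% of all genes passed (67.5% upward and 13.6% downward). In log2(CPM + 1) the same 6 differences were 3.21, 2.42, 0.37, 0.91, -4.12 and -1.90.

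**Figure D2:**
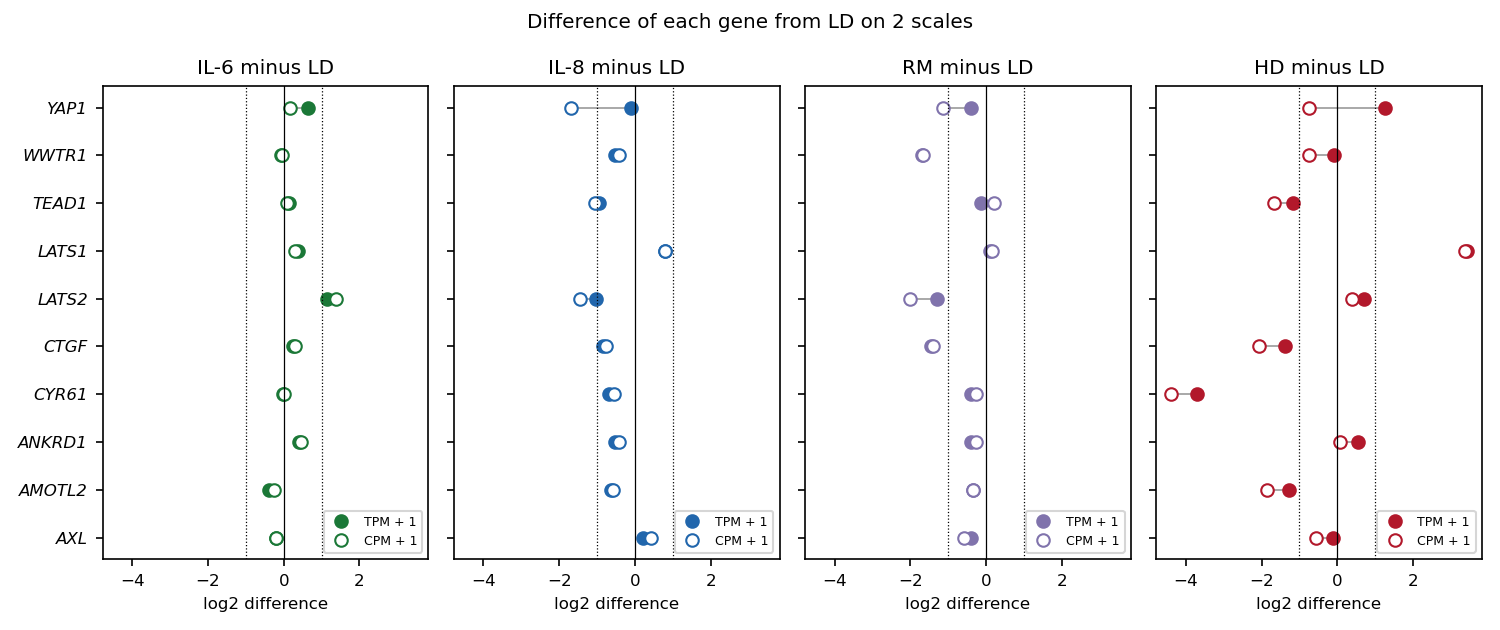
Difference of each gene from LD in the other 4 libraries, filled circles on the log2(TPM + 1) scale and open circles on the log2(CPM + 1) scale, with dotted lines at 1 log2 unit in either direction. In IL-6, IL-8 and RM the circles lie close together for most genes. In HD the open circle lies lower, as for WWTR1 at -0.08 in TPM and -0.75 in CPM. The gap is widest for YAP1, which stands at 1.25 in TPM and -0.75 in CPM in HD.

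YAP1 was the member whose TPM and reads stood farthest apart. In IL-8 it lay 0.10 below LD in TPM, while its reads were 6 against 32, a CPM ratio of 0.275 (95% interval 0.0941 to 0.668). In RM it lay 0.39 below LD in TPM with a CPM ratio of 0.430 (0.202 to 0.858). In HD it lay 1.25 above LD in TPM, on 5 reads, while its CPM ratio was 0.572 with an interval of 0.174 to 1.48. The TPM that 1 read stands for depends on the transcript length that the quantification assigns to the gene. For YAP1 that value, relative to LD and to the median gene of the same library, was 1.54 with IL-6, 3.65 with IL-8, 1.83 with RM and 2.92 in HD. In IL-8, 0.181% of the 8831 genes with at least 5 reads in both libraries equalled or exceeded it, and in HD 0.645% of 7752. For the other 9 members it lay between 0.822 and 1.46. Isoforms were not analysed here, so which transcripts of YAP1 were counted in each library was not tested.

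**Figure D3:**
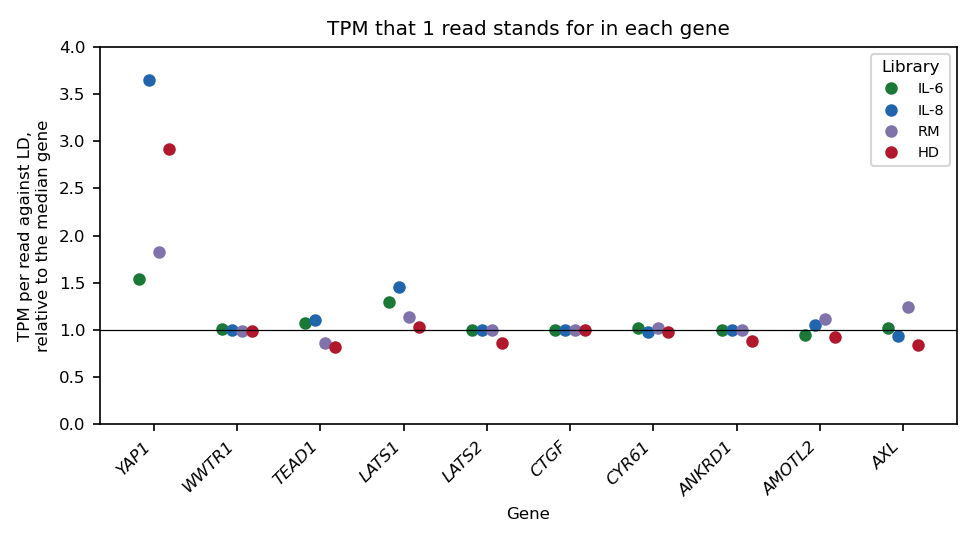
TPM per read of each gene in 4 libraries, divided by its value in LD and by the same ratio of the median gene, so that 1 means the scaling of a typical gene. YAP1 reaches 3.65 with IL-8 and 2.92 in HD, and no other member exceeds 1.46.

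Around these 10 genes, 69 further genes of the pathway and of a YAP and TAZ target signature were read in lists by role. Of these 68 passed the filter, and VGLL1 had no read in any library. In IL-6, 8 of the 68 passed 1 log2 unit upward from LD and 3 downward, in IL-8 6 and 14, in RM 6 and 22, and in HD 21 and 35. Of all genes tested the upward and downward shares were 9.84% and 7.47%, 7.99% and 16.4%, 6.44% and 20.4%, and 61.9% and 17.9%. The medians of the 68 were -0.06, -0.15, -0.58 and -1.01, against 0, 0, 0 and 1.86 over all genes. Genes that reached 1 TPM in HD alone are part of the 1.86. Over the 14267 genes that reached 1 TPM in a low-density library the HD median was 0.55, with 43.9% upward and 26.5% downward. Of the pathway genes 63 passed that filter, with 16 higher and 35 lower in HD. Among the 7380 genes with a mean of at least 10 TPM the HD median was -0.05. The downward majority in RM turned after median-ratio scaling, to 10 higher and 6 lower, and remained with TMM factors, at 7 and 15. That in IL-8 turned under both, to 9 and 5 and to 11 and 8, and that in HD remained, at 20 and 38 after median-ratio scaling. After median-ratio scaling the shares of all genes, upward and downward, were 12.6% and 11.2% in IL-8 and 13.3% and 11.9% in RM. In HD they were 57.8% and 21.1%. With TMM factors they were 14.8% and 16.0% in IL-8 and 12.7% and 17.4% in RM.

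In the kinase cassette upstream of and beside LATS1 and LATS2, of 15 genes 1 was higher and none lower with IL-6, 1 and 4 with IL-8, 1 and 6 with RM, and 5 and 6 in HD, where 17.3%, 24.4%, 26.8% and 79.7% of all genes passed in either direction. WWC1, which encodes the scaffold KIBRA that activates the kinases, had 46.5 TPM in LD, 153 with IL-6, 197 with IL-8, 8.51 with RM and 6.25 in HD. It was thus high with either cytokine alone and low with both and at high density, on 132, 241, 337, 54 and 11 reads. In RM its reads differed less from LD than its TPM (CPM ratio 0.469, 95% interval 0.335 to 0.649), and with TMM factors it stood at -0.65, short of the threshold. NF2, which encodes merlin, an upstream activator at the membrane, had 65.6 TPM in LD, 61.4 with IL-6, 69.6 with IL-8, 24.5 with RM and 73.6 in HD, so that RM stood lowest. SAV1, the scaffold of MST1 and MST2, had 10.0 TPM in LD, 6.91 with IL-6, 1.84 with IL-8, 2.82 with RM and 23.1 in HD, the last with a CPM ratio to LD of 1.5 (0.814 to 2.64). In HD, MOB1B, a co-activator of the LATS kinases, had 28.4 TPM against 1.15 in LD, and TAOK2, a kinase that phosphorylates MST1 and MST2, had 6.35 against 69.8.

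Of the 6 other TEAD and VGLL genes that passed, 1 was higher in the IL-6 library, 3 in IL-8, none in RM and 4 in HD, and 1 was lower in HD, where 9.84%, 7.99%, 6.44% and 61.9% of all genes passed upward and 17.9% downward in HD. VGLL2 and VGLL3, on 4 and 18 reads in HD, reached 1 TPM in HD alone. The filter thus took both in through the library in which they counted as higher. TEAD2 had 2.69 TPM in LD, 2.73 with IL-6, 25.4 with IL-8, 2.72 with RM and 57.9 in HD. TEAD3 reached 21.6 TPM in IL-8 against 6.77 in LD (CPM ratio 3.51, 95% interval 2.23 to 5.67), and TEAD4 19.9 TPM in IL-6 against 4.24 (4.93, 2.37 to 11.2). In IL-8 and in HD, the 2 libraries in which TEAD1 was low, TEAD2 was high, at 52 and 33 reads against 8 in LD. VGLL4, which competes with YAP for TEAD proteins, had 44.1 TPM in LD and 16.2 in HD (CPM ratio 0.231, 0.124 to 0.395).

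A list of 12 genes held angiomotins, junction and polarity proteins and PTPN14, several of which hold YAP at the membrane or in the cytoplasm, and the LIM proteins AJUBA, LIMD1 and WTIP, which bind and inhibit the LATS kinases. Of these 12, 2 were higher and 1 lower with IL-6 (shares of all genes 9.84% and 7.47%), none and 3 with IL-8 (7.99% and 16.4%), 2 and 6 with RM (6.44% and 20.4%), and 4 and 6 in HD (61.9% and 17.9%). The 2 higher with IL-6 were LIMD1 (1.11) and AJUBA (1.03), and the 2 higher with RM were AJUBA (1.27) and WTIP (1.47), all LIM proteins. LIMD1 lay below LD in RM (-0.56, 9 against 18 reads). AJUBA rested on 13 reads with IL-6 and 23 with RM, against 7 in LD. With a pseudocount of 5 LIMD1 and AJUBA fell short with IL-6, at 0.58 and 0.45. AMOTL1, the relative of AMOTL2, had 149 reads and 11.6 TPM in LD and 40 reads and 3.20 TPM with RM. It passed 1 log2 unit in 5 of the 6 other settings. AMOT had 3.74 TPM in LD, 0.62 with IL-6, 1.15 with IL-8, 1.02 with RM and 32.7 in HD, on 1 to 14 reads. FAT4, an atypical cadherin, had no read in LD and 13 in HD, and reached 1 TPM in HD alone. It was at least 15.9-fold higher in CPM in HD, against a floor of 3 reads in LD.

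The 6 YWHA genes and SFN encode the adaptor proteins that bind phosphorylated YAP and TAZ. No YWHA gene was higher in any of the 4 comparisons. Of the 6, 1 was lower with IL-8, 1 with RM and 5 in HD. Of all genes tested 9.84%, 7.99%, 6.44% and 61.9% were higher with IL-6, IL-8, RM and in HD. The lower shares were 7.47%, 16.4%, 20.4% and 17.9%. Among the 7380 genes with a mean of at least 10 TPM, 39.3% were higher and 36.2% lower in HD. SFN passed upward with IL-6 (2.85) and in HD (2.32), so the full list of 7 had 1 gene higher in each of these comparisons. It had 8 reads with IL-6, 1 with RM, 2 in HD and none in LD or IL-8. YWHAE had 388 TPM in LD, 324 with IL-6, 420 with IL-8, 413 with RM and 53.3 in HD, and YWHAB 362, 299, 221, 269 and 56.9 TPM in the same order. Of the 7 genes of casein kinase 1 and the SCF ubiquitin ligase, which mark phosphorylated YAP and TAZ for degradation, 1 was higher with IL-6, 2 higher and 1 lower with IL-8, 3 lower with RM, and 2 higher and 4 lower in HD, against 17.3%, 24.4%, 26.8% and 79.7% of all genes in either direction. CSNK1D had 49.2 TPM in LD and 168 with IL-8, with a smaller difference in reads (CPM ratio 1.82, 95% interval 1.54 to 2.17).

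The 16 further genes of the target signature were read beside the targets. In IL-6 2 were higher and 2 lower, in IL-8 none and 4, in RM 2 and 5, and in HD 5 and 7, where 17.3%, 24.4%, 26.8% and 79.7% of all genes passed in either direction. Of the 5 higher in HD, IGFBP3 and NT5E rested on 1 read each in HD and none in LD. NT5E had no read in any low-density library, so the filter took it in through HD alone. IGFBP3, a secreted binding protein of insulin-like growth factors, had 36 reads with IL-6 and none in LD, IL-8 or RM, at least 17.9-fold higher in IL-6 than in LD against a floor of 3 reads. FJX1 had 10.99 TPM in LD, 27.3 with IL-6 and 1.44 in IL-8, so that the 2 cytokines alone stood on opposite sides of LD. RBMS3, an RNA-binding protein, had 10.4 TPM in LD, 3.69 with IL-6, 2.84 with IL-8 and 0.88 in RM, and ASAP1, a regulator of ARF GTPases, 21.1, 18.7, 10.9 and 5.71 TPM. ARHGEF17, a guanine nucleotide exchange factor, had 18.6 TPM in LD, 6.64 with IL-8 and 39.1 in RM.

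At high density single target genes lay far from LD in both directions. TGFB2, a ligand of the TGF-beta family, had 133 reads and 64.7 TPM in HD and 2 to 8 reads at low density. It reached 1 TPM in HD alone. NUAK2, a kinase of the AMPK family, had 52.1 TPM in HD against 1.39 in LD, and F3, the gene for tissue factor, 29.3 against 1.65. GADD45A, a stress-response gene, had 285 reads in LD and none in HD, at least 26.0-fold lower in HD against the floor of 3 reads. These stood beside the 2 reads of CYR61 and 3 of CTGF in the same library.

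**Figure D4:**
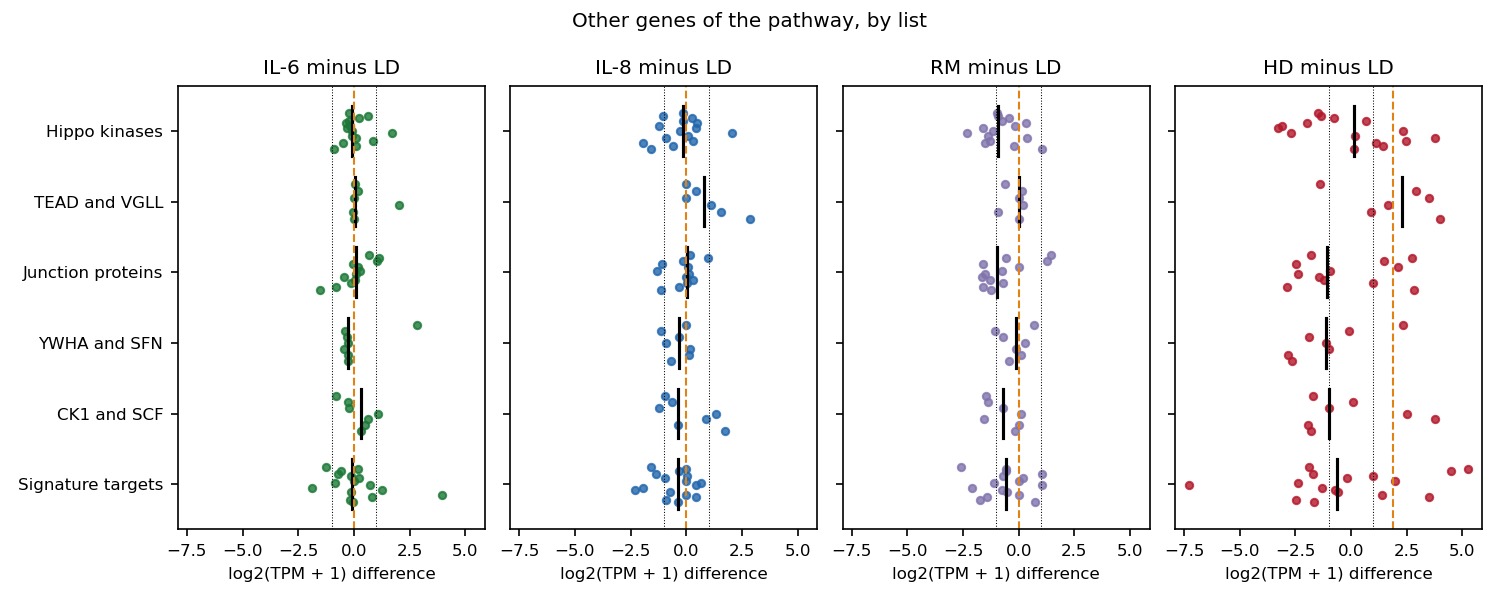
Difference from LD of other pathway genes that passed the filter, in 6 of the lists, on the log2(TPM + 1) scale; each point is a gene, the black bar the median of its list, the dashed line the median of all genes tested and the dotted lines 1 log2 unit in either direction. In HD 5 of the 6 YWHA genes lie below -1. The HD median is 1.86 over all genes tested and -0.05 over those with a mean of at least 10 TPM, 36.2% of which lie at or below -1.

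The genes whose differences from LD over the 4 other libraries lay nearest to those of YAP1 and CTGF were sought among 1261 well-counted genes. For YAP1 these were BC018860, ATP13A2 and RPS20, at root mean square distances of 0.27, 0.28 and 0.30 log2 units, against a median of 1.53. These rest on the TPM of YAP1, and in CPM the nearest were SSR3 (0.39), SF3B3 (0.45) and SERBP1 (0.47), none of them the same. For CTGF they were EXOC3 (0.20), FOSL1 (0.22) and DDX41 (0.25), against a median of 0.97, and EXOC3 and FOSL1 stayed among the 3 nearest in CPM. FOSL1, an AP-1 transcription factor, stood at 0.22 with IL-6, -0.71 with IL-8, -1.08 with RM and -1.53 in HD, where CTGF stood at 0.24, -0.85, -1.46 and -1.37.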

How the data were processed

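RNA from collagen-embedded HT1080 cells was sequenced as 1 library for each of 5 conditions, grouped by their labels. RNA was primed on poly-A, and the cDNA pool was amplified with phi29 polymerase before tagmentation. The submitters' processing notes name Bowtie2 2.3.1, RSEM 1.2.25 and the builds GRCh37 and hg19. The authors deposited a whole-number read count without normalization and a TPM value for 27189 genes in each library. The deposited TPM summed to 934821 to 978521 per library and were rescaled to 1000000. TPM keeps the transcript length that RSEM assigned, so the read counts were used beside it, for CPM outside RNA5-8S5 and for exact 95% intervals (Poisson for a level, conditional binomial for a ratio). The floor is 3 reads, 1.82 CPM in LD and 6.67 CPM in HD. PCR and phi29 copies are not independent molecules, so intervals and floors cover counting error only. A gene passed at 1 log2 unit or more after a pseudocount of 1 TPM, over the 21163 genes that reached 1 TPM in any library. With 1 library per condition no test between conditions was made.

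The members, the lists and the alternatives were chosen with earlier results of these data known. Named genes of a list are at most 4 per list and comparison, those with the largest difference past 1 log2 unit and at least 10 reads in the higher library, plus genes that account for a count of 5 or fewer, and the 3 genes nearest in pattern to YAP1 and to CTGF. The scripts were tested on simulated data. Some genes of these lists, and 1 list, are counted in the totals but not reported here. Alternatives were pseudocounts of 0.1 and 5, median-ratio scaling, CPM, CPM with TMM factors from edgeR 4.0.16, reads drawn down to 449661 per library, no filter, and filters of 10 TPM and of low-density or mean level. Promoter windows came from RefSeq on GRCh38.p14, and no coordinates of the files' build were used. Scripts ran under R 4.3.3 and Python 3.11.15 with matplotlib 3.10.9, scipy 1.17.1, pandas 2.3.3 and numpy 2.4.6.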

Additional observations from a re-analysis of the deposited data

How the results depend on the processing

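With 1 library per condition, no result here has a replicate check, and what depth limits is the low genes. YAP1, LATS1, LATS2 and ANKRD1 at low density, CTGF in IL-8 and RM, and most members in HD rest on fewer than 40 reads. Single differences recomputed under another pseudocount or scaling were judged by their shift from the main value. That shift was held against the reach of the counting interval of the CPM ratio, which is wide for genes on few reads. For the members 204 shifts stayed within it, 33 did not and 3 turned the sign of a difference past 1 log2 unit. For other named genes 384 stayed within it and 66 did not, none reversing. Genes with no read in 1 library, such as GADD45A in HD, have no bounds, so their shifts count as within it unless the sign turns. YAP1 in HD reversed, from 1.25 to -0.75 in CPM, -1.28 with TMM factors and -1.19 with reads drawn down; its 5 reads and its TPM per read are given above, and the cause was not tested. Counts of members past 1 log2 unit, out of 10 or of those that passed the filter, moved in IL-8 from 1 to 3 (pseudocount 0.1), 0 (pseudocount 5), 3 (CPM), 2 (TMM factors), 2 (reads drawn down), 0 (at least 10 TPM) and 0 (mean of at least 10 TPM), in IL-6 from 1 to 0 (pseudocount 5, reads drawn down, at least 10 TPM and mean of at least 10 TPM), and in HD from 6 to 3 (pseudocount 5). LATS2, which made the count with IL-6 and IL-8, does not reach the 10 TPM of those filters. Shares of all genes passing upward and downward moved as well. In IL-8 they went from 7.99% and 16.4% to 13.7% and 25.9% (pseudocount 0.1) and 3.39% and 6.13% (pseudocount 5). They were 10.5% and 18.8% in CPM, 14.8% and 16.0% with TMM factors, and 13.5% and 20.2% with reads drawn down. In IL-6 they were 17.2% and 12.3% with reads drawn down. Counts of the other pathway genes moved in IL-6 from 11 to 5 (pseudocount 5) and 3 (mean of at least 10 TPM, which leaves 43 of the 68 genes), in IL-8 from 20 to 10 and 11, in RM from 28 to 15 and 17 and to 16 after median-ratio scaling, and in HD from 56 to 35 (mean of at least 10 TPM, again of 43). The filters on the mean and on the low-density level, and the nearest genes in CPM, were chosen after seeing the data. No paired analysis was possible because each condition has 1 library and the labels give no replicate numbers.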
